A study of Rattus norvegicus with 145 samples.

Results

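The genes for 10 protein kinases of mitosis and its checkpoints were followed in rat liver. They were Cdk1, Plk1, Nek2, Aurka, Aurkb, Bub1, Bub1b, Ttk, Chek1 and Chek2. They were picked by gene symbol alone, and all 10 were among the 17337 genes of each of the 5 deposited count tables. RNA sequencing had been done on the left liver lobe of rats gavaged daily with acetamide, a food contaminant, or with its water vehicle. All rats were fasted overnight and killed the day after the last dose, with 5 rats in each of the 29 groups.

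In experiment A, Hsd:WI male rats aged 9 to 10 weeks received vehicle or acetamide for 7 days, at 30, 100, 300 and 1000 mkd (mg per kg body weight a day), and were killed on day 8. In experiment B, Crl:WI male and female rats aged 8 to 10 weeks received 0, 300, 500, 750, 1000 or 1500 mkd for 7 or 28 days and were killed on day 8 or day 29. Each combination of experiment, sex and day had its own vehicle group, which gives 5 data sets. Male vehicle rats of day 29 carry an exposure label that reads experiment 1, whereas their titles, strain and count table place them in experiment B, where they were used. Whole liver pieces were sequenced, so fewer cells of a type and less RNA per cell cannot be told apart in any value below. Hepatocyte genes were abundant in the vehicle and highest-dose groups, with 8 such genes summing to 64480 to 342900 CPM (read counts scaled to a library of 1e+06).

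A cell enters mitosis when Cdk1, bound to a cyclin B, is switched on, and Plk1, Nek2 and the Aurora kinases then drive centrosome separation, spindle assembly and chromosome attachment. Bub1, Bub1b and Ttk belong to the spindle checkpoint, which holds a cell in mitosis until its chromosomes are attached. Chek1 and Chek2 act earlier, holding the cell cycle when DNA is damaged or copied incompletely. Adult liver has few dividing cells, and mRNAs of the mitotic kinases are made mainly late in the cell cycle.

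Between 15449716 and 39986531 reads of each rat fell on genes (median 28262376). Levels are given as CPM after TMM scaling, and no levels are compared between genes because CPM takes no account of gene length. All 10 kinases passed the filter on low counts in all 5 data sets. Had the vehicle rats alone been filtered, 8 would have passed in experiment A, 9 in males on day 8, 7 in males on day 29, 6 in females on day 8 and 7 in females on day 29. Nek2 would have failed in every data set, Ttk in all but males on day 8, Bub1b in both sexes on day 29 and in females on day 8, and Plk1 in females on day 8. These kinases entered the test there through treated rats, so the filter favoured a rise. With no filter on counts, edgeR called 8 kinases at the highest dose in experiment A, 0 and 9 in males on day 8 and day 29, and 1 and 8 in females on day 8 and day 29. In the RefSeq annotation of GRCr8, Plk1 overlaps Ern2 and Aurka overlaps Fam210b. Whether the counting used strand is not given in the sources used here, so reads of those pairs cannot be assigned with certainty.

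Promoters are shown for 4 of the kinases, chosen after both their motifs and the results were seen. Among them, Cdk1, Plk1 and Ttk moved together in the results, while Chek1 followed Cdk1 less closely and was called at no dose. So chosen, the 4 cannot show whether motifs go with a response, which was not tested. Each is 300 bases, 5′ to 3′ on the strand of the gene, from 250 bases before the RefSeq start site to 50 after it, on build GRCr8. The authors aligned reads to the older Rn6 build, whose coordinates differ. Capitals mark matches to any of 3 motifs of cell cycle genes, searched on both strands: the CHR (TTTGAA), the CCAAT box (CCAAT) and an E2F site (TTTGGCGC or TTTCGCGC). The windows lie at chr20:19265043-19265342 (Cdk1, plus strand), chr1:186147408-186147707 (Plk1, plus strand), chr8:93634389-93634688 (Ttk, plus strand) and chr8:44629794-44630093 (Chek1, minus strand).
Cdk1: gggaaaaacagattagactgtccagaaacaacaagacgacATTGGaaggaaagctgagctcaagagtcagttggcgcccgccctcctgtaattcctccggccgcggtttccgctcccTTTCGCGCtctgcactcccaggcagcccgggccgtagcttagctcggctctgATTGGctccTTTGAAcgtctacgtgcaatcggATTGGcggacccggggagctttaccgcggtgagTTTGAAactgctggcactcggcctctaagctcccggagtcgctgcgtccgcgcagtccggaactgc
Plk1: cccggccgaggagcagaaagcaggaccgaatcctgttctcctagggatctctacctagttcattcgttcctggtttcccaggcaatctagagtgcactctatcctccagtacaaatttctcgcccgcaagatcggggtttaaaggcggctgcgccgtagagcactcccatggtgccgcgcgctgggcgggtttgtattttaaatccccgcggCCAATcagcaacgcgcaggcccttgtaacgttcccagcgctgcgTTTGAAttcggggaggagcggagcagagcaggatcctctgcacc
Ttk: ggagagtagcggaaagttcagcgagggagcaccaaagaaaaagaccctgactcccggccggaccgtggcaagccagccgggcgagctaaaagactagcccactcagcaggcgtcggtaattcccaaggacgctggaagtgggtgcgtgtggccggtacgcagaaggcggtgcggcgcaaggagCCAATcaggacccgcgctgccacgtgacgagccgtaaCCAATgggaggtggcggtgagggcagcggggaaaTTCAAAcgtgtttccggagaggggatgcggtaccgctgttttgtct
Chek1: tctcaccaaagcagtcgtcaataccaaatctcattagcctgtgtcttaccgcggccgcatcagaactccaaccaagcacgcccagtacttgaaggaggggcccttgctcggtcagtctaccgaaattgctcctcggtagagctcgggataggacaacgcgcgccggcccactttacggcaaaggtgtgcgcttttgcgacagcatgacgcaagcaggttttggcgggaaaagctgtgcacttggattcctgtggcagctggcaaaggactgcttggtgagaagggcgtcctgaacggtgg

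The Cdk1 window held the CHR at -72 and -16 from the start site, the CCAAT box on the opposite strand at -210, -81 and -49, and the E2F site at -133. Plk1 held a CHR at 6 bases after the start and a CCAAT box at -38. Ttk held a CHR on the opposite strand at 4 bases after the start and CCAAT boxes at -67 and -30. No 2 matches overlapped in these windows, and in the Chek1 window none of the 3 motifs matched.

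Of the 8 kinases with a promoter in the table, 4 held a CHR (Cdk1, Plk1, Ttk and Bub1b), 4 a CCAAT box (Cdk1, Plk1, Ttk and Nek2) and 1 the E2F site (Cdk1). Among all 33469 promoters of this length 18.3% held the CHR, 37.5% the CCAAT box and 0.792% the E2F site. Both the CHR and the CCAAT box were found in 3 of the 8 and in 7.41% of all promoters. The windows of Aurka and Bub1 held none of the 3 motifs. In the Aurka window the start site lies just before an ATG and directly after letters that resemble the end of an intron. That window, counted among the 8, may thus not be the Aurka promoter, and its lack of matches says nothing of that promoter. With all rats Aurka and Bub1 were called in the same 3 highest-dose comparisons as Cdk1. The table has no entry for Aurkb or Chek2. A match describes letters in a window and is not a measured binding site.

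Calls rest on the quasi-likelihood test of edgeR. A gene was called where its fold change against vehicle was at least 1.5 and its p, after Benjamini-Hochberg adjustment over all genes tested, was no higher than 0.05. The p-values weigh a difference against the variation between rats within groups. That variation was estimated over all dose groups of a data set together. At the highest dose 8 kinases were higher than in vehicle rats in experiment A, 0 in males on day 8, 9 in males on day 29, 1 in females on day 8 and 9 in females on day 29. Without replicate 3 of the 1500 mkd group, a rat described below, the 9 in males on day 29 became 2. No kinase was called lower in any of the 24 comparisons of a dose with vehicle. Among all genes tested, the percentage called at the highest dose was 21.4 in experiment A, 0.177 in males on day 8, 4.91 in males on day 29, 0.705 in females on day 8 and 13.1 in females on day 29.

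Median differences were closer to each other than the counts of calls. The median log2 fold change of the 10 kinases at the highest dose was 1.69 in experiment A, 1.58 in males on day 8, 3.49 in males on day 29, 1.73 in females on day 8 and 2.45 in females on day 29. For males on day 29 it was 0.80 without replicate 3 of the 1500 mkd group. Over all genes tested, the median lay between -0.00389 and 0.07 in those comparisons. In males on day 8, where edgeR called 0 kinases at 1500 mkd, 9 had an unadjusted p under 0.05, as did 1429 of the 11304 genes tested. The DESeq2 Wald test called 5 kinases there, namely Plk1, Aurkb, Bub1, Bub1b and Chek2. The edgeR count there rested on single rats: 7 kinases were called without vehicle replicate 5, 3 without replicate 2 of the 1500 mkd group and 1 without replicate 3 of the 1000 mkd group. Shares of all genes called by DESeq2 are not given beside these counts or those below. With a rat left out, they are given only for replicate 3 of the males at 1500 mkd on day 29. Without that rat, the share of all genes called in males on day 29 at 750 mkd went from 0.78% to 3.84%. Counts of kinases without such a share therefore show how calls depend on the setting and are not a result about the kinases. Females on day 8 depended on single rats as well. The 1 call became 0 without any of the 5 vehicle rats, 7 without replicate 1 and 6 without replicate 5 of the 1500 mkd group, and DESeq2 called 8.

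Below the highest dose, calls were made in females only when all rats were in the fit. Among females on day 8, 8 kinases were called at 1000 mkd, all but Chek1 and Chek2, where 1.37% of all genes were called. In females on day 29, Aurka was called at 750 mkd, and Cdk1, Plk1 and Aurkb were called at 1000 mkd, against 0.183% and 1.59% of all genes. Single rats decided these counts too. On day 8 the 8 calls became 0 without vehicle replicate 1, 3 or 5 or replicate 5 at 1000 mkd, and 13 without replicate 2 at 750 mkd. On day 29 the 4 calls became 0 without vehicle replicate 1 or 4 or replicate 4 at 1000 mkd, 8 without vehicle replicate 3, and 10 without replicate 5 at 1500 mkd. In experiment A, edgeR called 0 kinases and 0 of all genes at 30, 100 and 300 mkd. An unadjusted p under 0.05 was reached there by 0, 0 and 2 kinases, and by 324, 232 and 218 of the 11323 genes tested. In males on day 8 edgeR called 0 kinases and 0 of all genes at 300, 500, 750 and 1000 mkd. There, 0, 0, 5 and 9 kinases had p under 0.05, as did 159, 375, 865 and 531 of 11304 genes. In males on day 29 edgeR called 0 kinases at 300, 500, 750 and 1000 mkd, against 0, 0, 0.78% and 2.76% of all genes. With p under 0.05 there were 0, 0, 4 and 2 kinases, and 638, 1542, 2582 and 2959 of 11279 genes. Without replicate 3 of the 1500 mkd group the kinases called became 6 at 750 mkd and 7 at 1000 mkd, against 3.84% and 6.88% of all genes. With all rats, DESeq2 called 0 kinases in each of these male comparisons. In males on day 29, however, 14 of its adjusted p for kinases at these doses were missing (NA) and counted as not called.

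Among females, edgeR called 0 kinases on day 8 at 300, 500 and 750 mkd, against 0.0087%, 0.0174% and 0.0174% of all genes. An unadjusted p under 0.05 was reached by 6, 5 and 9 kinases, and by 295, 741 and 1609 of 11497 genes. DESeq2 called 0, 0 and 7 kinases at those doses. For females on day 29 it called 0 at 300 and 500 mkd, where edgeR also called 0 kinases, against 0 and 0.0349% of all genes. In edgeR 1 and 6 kinases had p under 0.05 there, as did 400 and 1301 of 11451 genes. At 750 and 1000 mkd DESeq2 called 6 and 7 kinases on day 29.

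**Figure D1:**
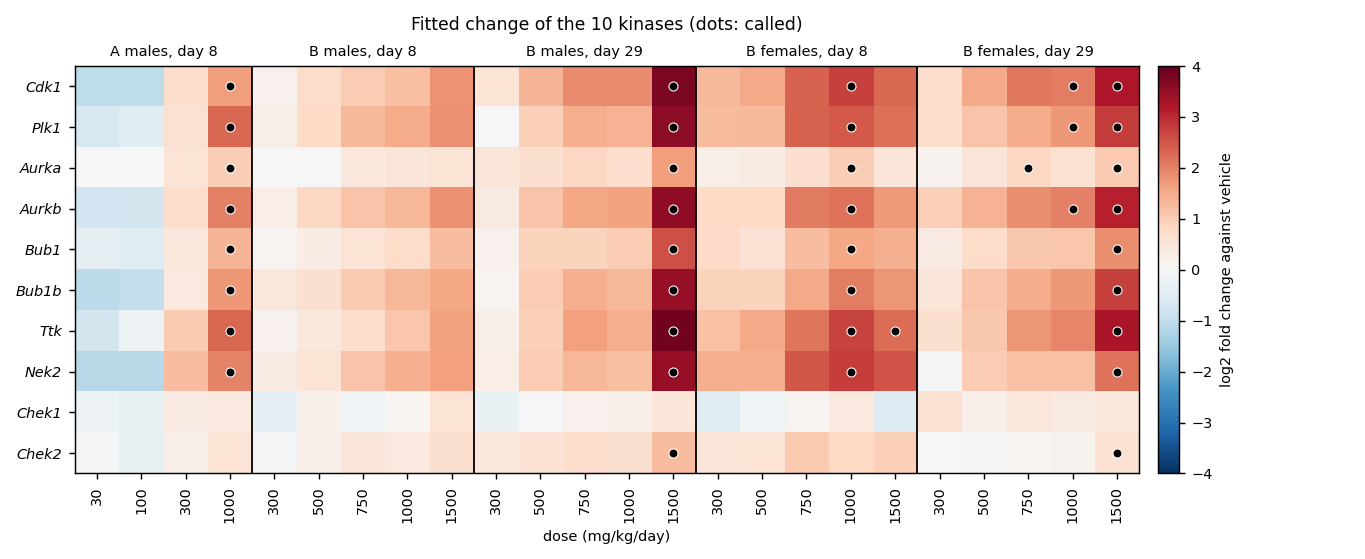
Log2 fold change of each of the 10 kinases against vehicle (color) at every dose in mkd of the 5 data sets, with a dot where the kinase was called. At the highest dose every value is positive except that of Chek1 in females on day 8 (-0.52), and the dots lie at the highest 2 doses apart from Aurka in females on day 29 at 750 mkd.

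Cdk1, the cyclin B-dependent kinase that starts mitosis, was called higher at the highest dose in 3 of the 5 data sets. For females on day 29 its level in the 5 vehicle rats was 0.739, 0.754, 1.38, 0.734 and 1.72 CPM, and in the 5 rats at 1500 mkd 10.6, 11.4, 12.4, 12.5 and 3.15 CPM. Every treated rat was above every vehicle rat, and the fifth stood below the other 4. The difference was 9.41-fold, a log2 fold change of 3.23 ± 0.48 (SE, n = 5 and 5, edgeR adjusted p = 9.04e-05). Cdk1 was already above all vehicle rats in 5 of 5 females at 750 mkd (3.13 to 6.47 CPM) and at 1000 mkd (3.29 to 6.13 CPM), and was called at 1000 mkd, with a log2 fold change of 2.04 ± 0.47 (edgeR adjusted p = 0.0274).

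Among females on day 8 Cdk1 stood at 0.851, 1.60, 0.468, 1.35 and 0.893 CPM in vehicle rats and at 6.58, 2.25, 4.52, 7.60 and 13.4 CPM in rats at 1000 mkd. The groups did not overlap, and the log2 fold change was 2.73 ± 0.60 (edgeR adjusted p = 0.0195). The 5 females at 1500 mkd had 2.32, 2.34, 6.44, 11.4 and 3.26 CPM, also above every vehicle rat, with a log2 fold change of 2.30 ± 0.60 that missed the threshold (edgeR adjusted p = 0.0588). Of these rats, replicates 3 and 4 stood above the other 3.

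Male vehicle rats varied more. In experiment A Cdk1 was at 1.12, 2.32, 0.945, 3.67 and 10.0 CPM in vehicle rats and at 9.55, 9.33, 9.26, 21.4 and 7.95 CPM at 1000 mkd. Vehicle replicate 5 overlapped the treated rats, and 1 of 5 treated rats was above it. The log2 fold change of 1.66 ± 0.62 was called (edgeR adjusted p = 0.044), but 7 of 16 alternative settings gave no call, over which the adjusted p ran from 0.00544 to 0.13. Without vehicle replicate 5 the log2 fold change was 2.50.

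For males of experiment B on day 8, Cdk1 was at 1.41, 1.34, 1.87, 3.08 and 7.72 CPM in vehicle rats and at 5.47, 3.22, 11.2, 13.5 and 19.5 CPM at 1500 mkd. Vehicle replicate 5 was again the highest control, and 3 of 5 treated rats were above it. The log2 fold change was 1.80 ± 0.57 (edgeR adjusted p = 0.153).

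**Figure D2:**
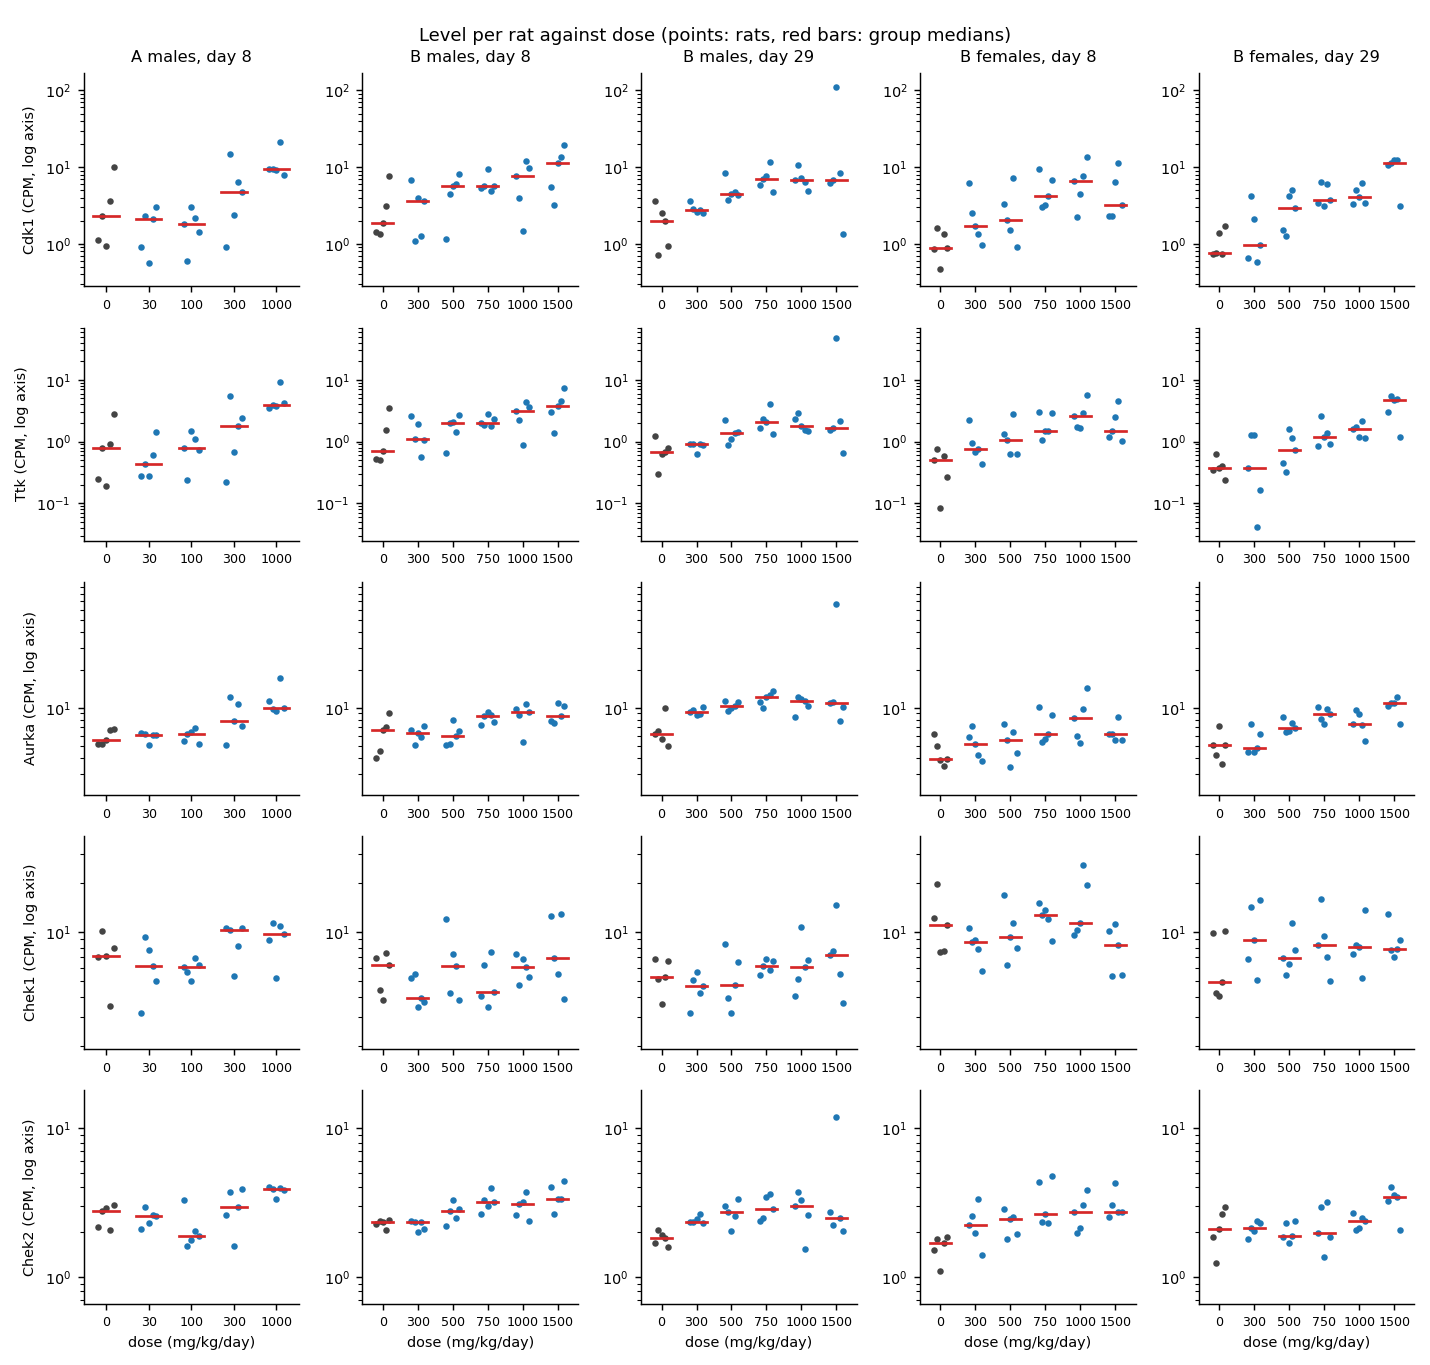
Level (CPM, log axis) of Cdk1, Ttk, Aurka, Chek1 and Chek2 in each rat against dose in mkd, with a column of panels for each data set, points for rats and red bars for group medians. Medians of Cdk1 and Ttk are higher at the highest dose than with vehicle in all 5 data sets, and 1 male at 1500 mkd on day 29 stands far above the rest (112 CPM of Cdk1), whereas Chek1 at the highest dose overlaps the vehicle rats in every data set.

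Plk1, the Polo-like kinase of centrosome maturation and chromosome separation, was called in the same 3 highest-dose comparisons as Cdk1, though not in males on day 29 without replicate 3 at 1500 mkd (log2 fold change 0.99, edgeR adjusted p = 0.0766). In females on day 29 vehicle rats had 0.700, 0.918, 1.01, 0.449 and 0.600 CPM and rats at 1500 mkd had 5.00, 7.43, 5.55, 5.63 and 2.21 CPM. The groups were separate, and the log2 fold change was 2.81 ± 0.41 (7.00-fold, edgeR adjusted p = 8.13e-05). In experiment A the vehicle rats had 0.631, 1.20, 0.567, 1.45 and 2.46 CPM and those at 1000 mkd had 4.65, 6.15, 4.26, 10.7 and 5.35 CPM, with no overlap and a log2 fold change of 2.29 ± 0.43 (edgeR adjusted p = 0.000616).

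Nek2, a kinase of centrosome separation, was close to the limit of counting, with 1 to 6 reads per vehicle rat in females on day 8 and 2 to 24 in experiment A. In experiment A its level rose from 0.0756 to 0.787 CPM in vehicle rats to 0.914 to 2.35 CPM at 1000 mkd, with no overlap. With no filter on counts, its log2 fold change was 1.98 ± 0.54 (edgeR adjusted p = 0.0105). For females on day 29 it ran from 0.156 to 0.295 CPM in vehicle rats and from 0.170 to 1.52 CPM at 1500 mkd, and replicate 5 of the treated group lay inside the vehicle range. The log2 fold change there was 2.16 ± 0.48 with no filter (edgeR adjusted p = 0.00331).

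Aurka, the Aurora kinase of the spindle poles, was called in 3 highest-dose comparisons with log2 fold changes of 0.97 ± 0.19 in experiment A, 1.67 ± 0.38 in males on day 29 and 1.04 ± 0.18 in females on day 29 (edgeR adjusted p = 0.000823, 0.0121 and 0.000309). Aurkb, the enzyme of the chromosomal passenger complex, was called in the same 3, with log2 fold changes of 2.03 ± 0.48, 3.53 ± 0.67 and 3.11 ± 0.46 (edgeR adjusted p = 0.00312, 0.00834 and 8.16e-05). Without replicate 3 of the males at 1500 mkd the male values were 0.52 for Aurka, which was then under the minimum fold, and 1.47 for Aurkb.

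Among females on day 29 Aurka was at 5.02, 4.23, 7.21, 3.59 and 5.08 CPM in vehicle rats and at 10.3, 10.9, 10.9, 12.1 and 7.41 CPM at 1500 mkd. In the same rats Aurkb was at 0.778, 0.787, 0.670, 0.489 and 0.960 CPM with vehicle and at 5.78, 8.21, 9.45, 6.43 and 2.04 CPM with 1500 mkd. For both genes every treated rat exceeded every vehicle rat, and treated replicate 5 was the lowest of its group. Aurka was called from 750 mkd in these females, where all 5 rats (7.49 to 10.2 CPM) exceeded the vehicle rats and the log2 fold change was 0.82 ± 0.18 (edgeR adjusted p = 0.0466). Of 16 alternative settings 13 gave no call, with adjusted p from 0.00291 to 0.141.

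The difference between the Auroras was tested within rats, as the log2 ratio of Aurka to Aurkb. In females on day 29 the ratio was 2.65 ± 0.40 in vehicle rats and 0.83 ± 0.62 at 1500 mkd (mean ± SD, n = 5 and 5), a fall of 1.81 with all 5 treated rats below all vehicle rats. For males of experiment B on day 8 it was 2.10 ± 0.43 and 0.84 ± 0.53, a fall of 1.27 with the same separation. Both had an exact permutation p of 0.00794, the smallest that 5 rats against 5 allow, and an adjusted p of 0.0397 over the 15 ratio tests made.

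In the other 3 data sets the ratio of Aurka to Aurkb was lower by 1.28 in experiment A, 1.12 in males on day 29 and 0.99 in females on day 8, with 3, 4 and 3 of 5 treated rats below all vehicle rats. Those did not pass (exact permutation test, adjusted p = 0.119, 0.221 and 0.198). The ratio of Bub1 to Bub1b was lower by 0.26 to 0.75 in the 5 data sets, and 0 of them passed in the same exact test (adjusted p from 0.119 to 0.614, with 1 of 5 at an unadjusted p under 0.05). The vehicle groups of the 5 data sets are separate rats, so the ratio tests share no samples between data sets.

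**Figure D3:**
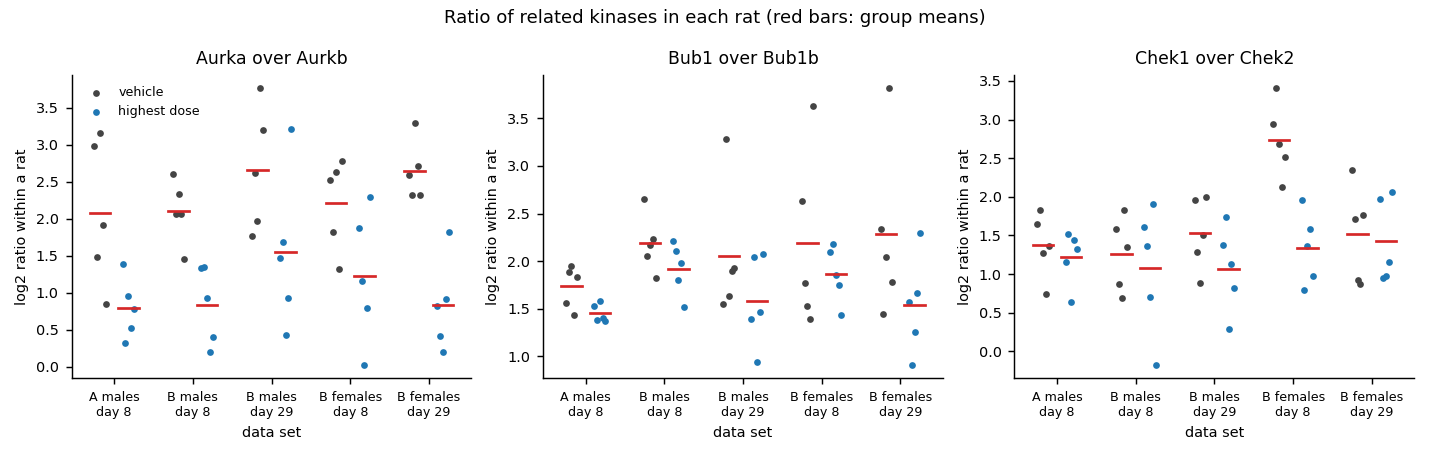
Log2 ratios of Aurka to Aurkb, Bub1 to Bub1b and Chek1 to Chek2 in each rat at vehicle and at the highest dose of each data set, with points for rats and bars for means. The Aurka to Aurkb ratio of the 5 females at 1500 mkd on day 29 averages 0.83 against 2.65 in vehicle rats, and Bub1 to Bub1b ratios overlap between vehicle and treated rats in all 5 data sets.

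Bub1, Bub1b and Ttk, the kinases of the spindle checkpoint (Bub1b encodes BubR1 and Ttk encodes Mps1), were called in experiment A and on day 29 in both sexes. The male calls on day 29 rested on replicate 3 at 1500 mkd, without which the log2 fold changes were 0.63 for Bub1, 0.93 for Bub1b and 0.97 for Ttk and none of the 3 was called (edgeR adjusted p = 0.163, 0.223 and 0.0822). Ttk was the kinase with the largest log2 fold change in females on day 29. Its level was 0.350, 0.623, 0.377, 0.408 and 0.240 CPM in vehicle rats and 3.06, 5.56, 4.75, 4.88 and 1.19 CPM at 1500 mkd. The groups were separate and the log2 fold change was 3.26 ± 0.55 (9.59-fold, edgeR adjusted p = 0.000273). Ttk passed the filter there only through treated rats. With no filter on counts its log2 fold change was 3.25 ± 0.54 (edgeR adjusted p = 0.000293), close to the 3.22 ± 0.48 of Cdk1.

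For females on day 8 Ttk was at 0.503, 0.770, 0.0850, 0.578 and 0.272 CPM with vehicle and at 1.18, 1.51, 2.54, 4.56 and 1.01 CPM at 1500 mkd. No treated rat lay in the vehicle range, and Ttk was the only kinase called at that dose, with a log2 fold change of 2.25 ± 0.55 (edgeR adjusted p = 0.0441, and 0.0478 with no filter on counts). In 10 of 15 alternative settings Ttk was not called, with adjusted p from 0.00324 to 0.156. In the vehicle rat with 0.0850 CPM the gene had 2 reads.

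In experiment A Ttk, which passed the filter only through treated rats, ran from 0.189 to 2.79 CPM with vehicle and from 3.49 to 9.32 CPM at 1000 mkd. Its log2 fold change was 2.29 ± 0.66 (edgeR adjusted p = 0.012, and 0.0126 with no filter on counts). Bub1b there ran from 0.561 to 2.30 and from 2.49 to 6.35 CPM, with a log2 fold change of 1.72 ± 0.48 (edgeR adjusted p = 0.00974). For both genes the treated rats were above all vehicle rats. Bub1 ran from 1.79 to 8.37 and from 7.34 to 17.0 CPM, with 1 treated rat inside the vehicle range and a log2 fold change of 1.37 ± 0.38 (edgeR adjusted p = 0.00953).

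On day 29 in females, Bub1 ran from 1.38 to 3.20 CPM with vehicle and from 4.26 to 11.4 CPM at 1500 mkd, and its log2 fold change was 1.84 ± 0.31 (edgeR adjusted p = 0.000279). Bub1b ran from 0.122 to 0.880 and from 0.808 to 4.71 CPM, with treated replicate 5 inside the vehicle range and a log2 fold change of 2.73 ± 0.52 (edgeR adjusted p = 0.000793). Bub1b passed the filter there only through treated rats. With no filter on counts its log2 fold change was 2.72 ± 0.51 (edgeR adjusted p = 0.000849).

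Chek1 and Chek2 are the effector kinases downstream of ATR and ATM. Chek1 was called in no comparison with vehicle, in either direction, by edgeR or DESeq2, and no alternative setting gave a call at the highest dose. Its log2 fold change at the highest dose was 0.38 ± 0.27 in experiment A, 0.53 ± 0.31 in males on day 8, 0.50 ± 0.29 in males on day 29, -0.52 ± 0.30 in females on day 8 and 0.42 ± 0.33 in females on day 29. The edgeR adjusted p lay between 0.275 and 0.489. An interval of 2 SE around each of these values reaches past a 1.5-fold difference, so differences of that size were not resolved with 5 rats a group.

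Among females on day 8 Chek1 was at 12.1, 19.7, 7.52, 7.61 and 11.0 CPM with vehicle and at 10.2, 5.33, 11.3, 8.30 and 5.46 CPM at 1500 mkd. The groups overlapped, with 3 treated rats inside the vehicle range and 2 below it. Chek2 in the same females was at 1.51, 1.80, 1.10, 1.69 and 1.86 CPM with vehicle and at 2.55, 3.05, 4.31, 2.72 and 2.73 CPM at 1500 mkd. Every treated rat had more Chek2 than every vehicle rat, although the log2 fold change of 0.94 ± 0.25 missed the threshold (edgeR adjusted p = 0.0606).

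Within those rats the log2 ratio of Chek1 to Chek2 was 2.73 ± 0.48 with vehicle and 1.34 ± 0.47 at 1500 mkd (mean ± SD, n = 5 and 5). It was lower in 5 of 5 treated rats than in any vehicle rat, by 1.40 (exact permutation p = 0.00794, adjusted p = 0.0397 over the 15 ratio tests). In the other 4 data sets the ratio was lower by 0.10 to 0.46 and did not pass in the exact test (adjusted p from 0.309 to 0.818). Mean ratios there were 1.26 to 1.53 with vehicle and 1.07 to 1.42 at the highest dose. The vehicle females of day 8 thus stood above every other group mean, and the treated females lay among the others. The part of this high vehicle ratio in the difference was not tested.

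Chek2 was called at 1500 mkd on day 29 in both sexes. In males 8 of 16 alternative settings gave no call (adjusted p from 0.0127 to 0.288), and without replicate 3 the log2 fold change was 0.32 in place of 1.25. In females of that day vehicle rats had 1.87, 1.25, 2.10, 2.65 and 2.96 CPM and treated rats 3.24, 4.00, 3.54, 3.47 and 2.08 CPM. Of the treated rats, 4 exceeded all vehicle rats and the fifth did not, with a log2 fold change of 0.60 ± 0.22 (1.52-fold, edgeR adjusted p = 0.0496). In 12 of 16 alternative settings it was not called, and the adjusted p ran from 0.0141 to 0.187. For males on day 8, Chek2 was at 2.27, 2.37, 2.34, 2.06 and 2.42 CPM with vehicle and at 4.03, 2.66, 3.35, 3.36 and 4.39 CPM at 1500 mkd. The groups were separate, and the log2 fold change was 0.63 ± 0.15 (1.55-fold, edgeR adjusted p = 0.0617). In experiment A it was separate as well, at 2.08 to 3.05 CPM with vehicle and 3.34 to 4.00 CPM at 1000 mkd, where the fold change of 1.47 was under the minimum of 1.5.

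Males on day 29 held 1 rat that stood apart. By the animal number in its title, it is the rat that the study reported as an outlier in hepatocyte Ki-67 labeling. The study saw no increase in its other endpoints of liver injury. Replicate 3 of the males at 1500 mkd had 112 CPM of Cdk1, against 6.24, 6.80, 8.43 and 1.34 CPM in the other 4 rats of its group and 3.65, 0.713, 2.51, 1.99 and 0.928 CPM in the vehicle rats. It had 46.7 CPM of Ttk, against 1.55, 1.64, 2.16 and 0.644 CPM in the others and 0.300 to 1.25 CPM with vehicle. It had 66.3 CPM of Aurka, against 11.0, 11.1, 7.84 and 10.2 CPM in the others and 5.01 to 10.0 CPM with vehicle. Replicate 3 was the highest of its group for all 10 kinases, and replicate 5 was the lowest for all but Aurka.

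For Chek1 that rat was high by less, at 14.7 CPM against 7.25, 7.61, 5.53 and 3.66 CPM in the others and 3.60 to 6.85 CPM with vehicle. Chek2 in it was at 12.0 CPM against 2.75, 2.24, 2.49 and 2.04 CPM in the others and 1.60 to 2.06 CPM with vehicle.

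With the rat, log2 fold changes at 1500 mkd were 3.78 ± 0.73 for Cdk1, 3.58 ± 0.74 for Plk1, 3.49 ± 0.86 for Nek2, 2.58 ± 0.59 for Bub1, 3.49 ± 0.80 for Bub1b, 3.85 ± 0.79 for Ttk and 1.25 ± 0.34 for Chek2 (edgeR adjusted p = 0.00834, 0.0088, 0.0184, 0.0124, 0.0132, 0.0088 and 0.0298). Nek2, Bub1b and Ttk passed the filter in these males only through treated rats. With the rat and no filter on counts, their log2 fold changes were 3.42 ± 0.85, 3.42 ± 0.79 and 3.785 ± 0.778 (edgeR adjusted p = 0.0213, 0.0164 and 0.00943). Without the rat 2 kinases remained called, against 6.08% of all genes. They were Cdk1, with a log2 fold change of 1.47 (2.76-fold, edgeR adjusted p = 0.026), and Aurkb, also at 1.47 (edgeR adjusted p = 0.0185). The median log2 fold change of the 10 kinases was 0.80 in place of 3.49.

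Leaving that rat out also changed the calls at lower doses, at which no rat had been removed. With it out of the fit, edgeR called 6 kinases at 750 mkd and 7 at 1000 mkd, in place of 0 and 0, against 3.84% and 6.88% of all genes. Cdk1, Plk1, Aurka, Aurkb, Ttk and Chek2 were called at both doses and Bub1 at 1000 mkd. In males on day 29 Cdk1 was above all vehicle rats in 5 of 5 rats at 500 mkd (3.69 to 8.28 CPM), at 750 mkd (4.71 to 11.6 CPM) and at 1000 mkd (4.92 to 10.7 CPM). Ttk was above all vehicle rats in 5 of 5 males at 750 mkd (1.34 to 4.08 CPM) and at 1000 mkd (1.51 to 2.87 CPM).

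Replicate 3 differed from the other 4 rats at 1500 mkd in cell type markers too. Its hepatocyte markers summed to 81290 CPM, against 151500 to 190000 in the others, and its endothelial markers to 238 CPM against 69.9 to 129. Its T and NK cell markers summed to 44.6 CPM against 17.6 to 35.2 and its erythroid markers to 2.38 CPM against 4.85 to 24.8, while its macrophage markers, at 966 CPM, lay inside the range of the others (376 to 1027). The part of these differences in the kinase levels was not tested.

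**Figure D4:**
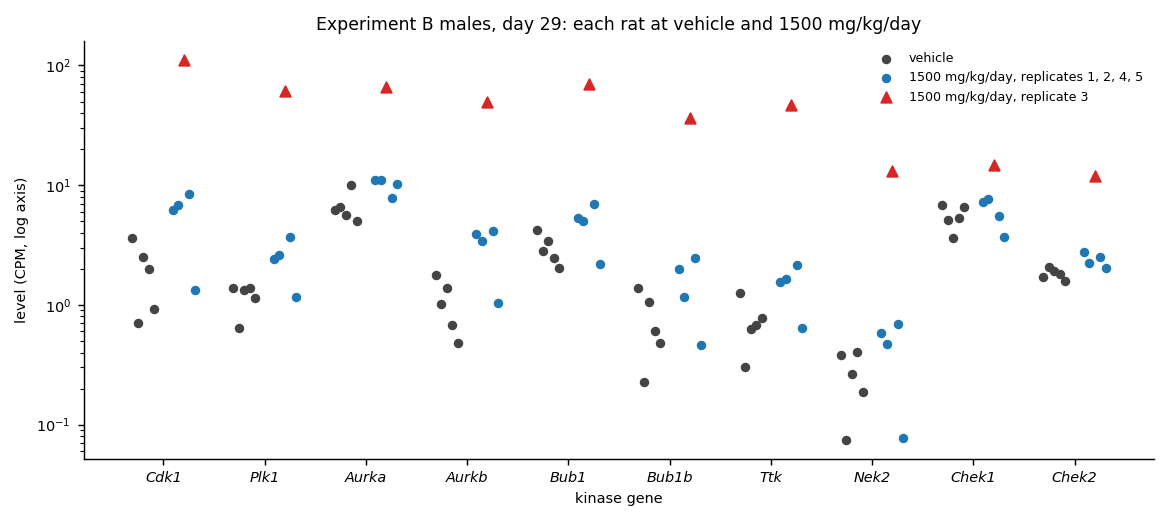
Level (CPM, log axis) of each of the 10 kinases in every male of day 29 at vehicle and at 1500 mkd, with replicate 3 of the treated group as a red triangle. That rat lies above the 9 others for all 10 kinases, at 112 CPM of Cdk1, whereas replicate 5 of that group, at 1.34 CPM of Cdk1, lies within the vehicle range.

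Every rat of a data set entered the test of a linear trend with dose. The trend was upward and called for 9 kinases in experiment A, in males on day 8, in males on day 29 and in females on day 29, all but Chek1 each time. It was called for 8 in females on day 8, all but Chek1 and Aurka. Without replicate 3 at 1500 mkd, 5 trends were called in males on day 29, and without vehicle replicate 1 or replicate 4 at 1500 mkd, 3 were called in females on day 8. There, 4 were called without vehicle replicate 5, and 5 without replicate 3 of either the vehicle or the 1500 mkd group. Among all genes the trend was called for 45.9% in experiment A, 2.52% and 24.5% in males on day 8 and day 29, and 5.44% and 27.3% in females on day 8 and day 29. A trend was called on its adjusted p of at most 0.05, with no minimum fold.

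Slopes for Cdk1 were 2.24 ± 0.51 log2 units per 1000 mkd in experiment A, 1.23 ± 0.31 in males on day 8, 2.44 ± 0.36 in males on day 29, 1.56 ± 0.40 in females on day 8 and 2.06 ± 0.26 in females on day 29 (edgeR adjusted p from 1.56e-06 to 0.0244). For Aurka they were lower, from 0.45 ± 0.11 to 1.00 ± 0.16 log2 units per 1000 mkd. Those of Chek2 ran from 0.41 ± 0.12 to 0.73 ± 0.19, and those of Chek1 from -0.02 ± 0.21 to 0.53 ± 0.23. Chek1 came near the threshold in experiment A and in males on day 29 (edgeR adjusted p = 0.0586 and 0.0577), and less so in males on day 8 (0.257). With 1 rat left out, up to 10 trends were called in experiment A and in males on day 29, Chek1 then among them. Males on day 8, with 0 kinases called at any single dose, thus had 9 called trends (edgeR adjusted p from 0.00398 to 0.0463).

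Whether the response to the highest dose differed between sexes, days or experiments was tested as an interaction, called on an adjusted p of at most 0.05 alone. The edgeR test called 0 kinases in each of the 5 comparisons, and DESeq2 called 0. Unadjusted p under 0.05 was reached by 1 kinase for females against males on day 8, 0 on day 29, 8 for day 29 against day 8 in males, 1 in females, and 0 for experiment A at 1000 mkd against experiment B males on day 8 at 1000 mkd. Among all genes the percentage called was 0, 0.466, 0, 0.0169 and 7.48 in that order. An unadjusted p under 0.05 was reached, in the same order, by 510, 2033, 547, 928 and 2893 genes. The genes tested were 11800, and 11579 between experiments.

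Replicate 3 of the males at 1500 mkd moved the estimates of both interactions that used it, but changed a call only between the sexes on day 29. In males the response on day 29 minus that on day 8 was 1.96 ± 0.84 log2 units for Cdk1 with the rat and -0.31 ± 0.75 without it (edgeR adjusted p = 0.994 and 0.966). On day 29 the female response minus the male response was negative for all 10 kinases with the rat, with a median of -0.602, and positive for all 10 without it. For Ttk it went from -0.56 ± 0.89 to 2.27 ± 0.75, and only Ttk was then called (edgeR adjusted p = 0.782 and 0.0408).

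Chek1 was the kinase with an unadjusted p under 0.05 for females against males on day 8, with a response lower by 1.06 ± 0.46 log2 units in females (95% interval -1.95 to -0.16, edgeR adjusted p = 0.997). For Cdk1 the same difference was 0.50 ± 0.86 (95% interval -1.19 to 2.19), which leaves room for a several-fold difference in either direction.

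Vehicle rats were compared as the background of these responses. No kinase was called between vehicle groups by edgeR. On day 8, however, vehicle females were lower than vehicle males for 9 of the 10, with a median log2 difference of -0.889. There, 7 kinases had an unadjusted p under 0.05, as did 2746 of the 11800 genes tested. Cdk1 was lower by 1.72 ± 0.65 and Ttk by 1.73 ± 0.66 log2 units (edgeR adjusted p = 0.0691 and 0.0762), and DESeq2 called these 2 (adjusted p = 0.0321 and 0.0318). Chek1 differed in the other direction, at 7.52 to 19.7 CPM in females and 3.81 to 7.47 CPM in males, a log2 difference of 0.84 ± 0.32 (edgeR adjusted p = 0.0796).

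For the other vehicle comparisons edgeR and DESeq2 called 0 kinases, with 0 at an unadjusted p under 0.05 for females against males on day 29, 0 for day 29 against day 8 in males, 1 in females and 0 for experiment A against experiment B. The 1 in females was Chek1, with a log2 difference of -0.73 ± 0.32 for day 29 against day 8 (edgeR adjusted p = 0.185). Among all genes, 8% differed between vehicle females and males on day 8 and 12.1% on day 29. Between days 0.0169% differed in males and 1.25% in females, and between experiments 1.29%. An unadjusted p under 0.05 was reached by 3778 of 11800 genes for females against males on day 29. Between days 1250 genes reached it in males and 2328 in females, and between experiments 1985 of 11579. Strain, supplier and experiment changed together between experiments A and B and cannot be told apart.

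How the kinases varied together among rats of the same group was described by their deviations from group means, on the log2 CPM scale, over the rats of all 29 groups. In order of Pearson r, Ttk followed Cdk1 most closely (Pearson r = 0.91, Spearman rho = 0.876), then Bub1b (0.905 and 0.895), Aurkb (0.904 and 0.88), Plk1 (0.892 and 0.85), Nek2 (0.862 and 0.81) and Bub1 (0.86 and 0.825). By Spearman rho, Bub1b and Aurkb came before Ttk. Aurka (0.685 and 0.633), Chek2 (0.507 and 0.411) and Chek1 (0.215 and 0.166) had lower values. Over the 9 relations, the permutation p of r was 1e-05 for all but Chek1, the smallest that 1e+05 resamples can give (adjusted p = 1.12e-05). For Chek1 the permutation p was 0.0333 for r and 0.0756 for rho. Rats of a group share handling and all genes of a rat share 1 library, so these values describe the rats and are not a test of shared control.

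Without the 2 rats farthest from the median of Cdk1, r was 0.892 for Ttk, 0.619 for Aurka, 0.381 for Chek2 and 0.117 for Chek1, so the weak relation of Chek1 with Cdk1 rested on those rats. Within single data sets r ran from 0.784 to 0.959 for Ttk, from 0.495 to 0.778 for Aurka, from 0.201 to 0.762 for Chek2 and from -0.291 to 0.535 for Chek1. The lowest values for Chek1 and Chek2 were both in males on day 8.

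**Figure D5:**
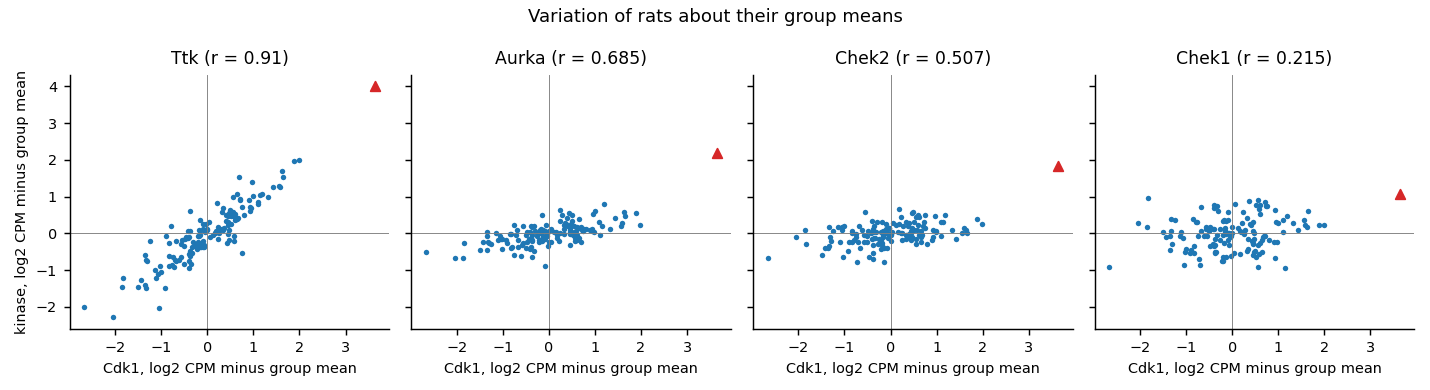
Deviation of Ttk, Aurka, Chek2 and Chek1 from their group means (log2 CPM, vertical) against that of Cdk1 (horizontal) in the rats of all groups, 1 point a rat, with replicate 3 of the males at 1500 mkd on day 29 as a red triangle. Points for Ttk lie along a line (r = 0.91), those for Aurka and Chek2 scatter more (r = 0.685 and 0.507), and those for Chek1 form a cloud (r = 0.215).

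The genes whose pattern was most like the mean log2 CPM of the 10 kinases, after removal of data set means, were Kif22 (r = 0.977), Prc1 (0.976), Mki67 (0.975), Dlgap5 (0.973) and Ccnb1 (0.973), among 11056 genes compared over the rats of all groups. Kif22 encodes a chromosome-moving kinesin, Prc1 a midzone microtubule bundler, Mki67 the Ki-67 proliferation antigen, Dlgap5 a spindle protein and Ccnb1 cyclin B1. Without replicate 3 of the males at 1500 mkd the same r values were 0.973, 0.974, 0.971, 0.968 and 0.97.

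Partners of the kinases were counted by role. Of the 5 cyclins and Cks subunits that bind Cdk1, 4 were called higher at the highest dose in experiment A, 0 in males on day 8, 4 in males on day 29, 1 in females on day 8 and 4 in females on day 29, with a median log2 fold change of 1.54 to 3.46. The highest of these, in males on day 29, was 0.889 without replicate 3 at 1500 mkd. Ccnb1 (cyclin B1) went from 1.25 ± 0.58 to 10.2 ± 3.52 CPM in females on day 29 (mean ± SD, n = 5 and 5), a log2 fold change of 3.02 ± 0.46. Ccna2 (cyclin A2) changed there by 3.20 ± 0.47 and Ccnb2 (cyclin B2) by 2.17 ± 0.40 (edgeR adjusted p = 0.000125, 8.13e-05 and 0.000652 for the 3 cyclins).

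Cdk1 is held off by Wee1 and Pkmyt1 and switched on by the Cdc25 phosphatases. Of these 5 genes, 2, 0, 2, 0 and 3 were called higher in the same order of data sets, with medians of 0.60 to 1.19. Pkmyt1, the inhibitory kinase, changed by 2.19 ± 0.35 log2 units in females on day 29 and by 1.42 ± 0.29 in experiment A (edgeR adjusted p = 0.000166 and 0.00125). Cdc25c changed by 1.13 ± 0.23 in experiment A (edgeR adjusted p = 0.00115), and Cdc25b was called in males on day 29, at 2.01 ± 0.45 (edgeR adjusted p = 0.0113).

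Activators and passengers of the Auroras and Plk1 were called higher in 4, 1, 5, 0 and 5 of 5 cases. Tpx2, the activator of Aurora A on the spindle, was the 1 gene of this group called in males on day 8, with 4.09 ± 1.35 CPM with vehicle, 11.8 ± 3.46 CPM at 1500 mkd and a log2 fold change of 1.54 ± 0.31 (edgeR adjusted p = 0.0333). Birc5 (survivin) and Cdca8 (borealin), partners of Aurora B, changed by 2.51 ± 0.41 and 1.63 ± 0.26 log2 units in females on day 29 (edgeR adjusted p = 0.000233 and 0.000194).

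Of 10 tested genes for partners in the spindle checkpoint and at the kinetochore, 7, 0, 6, 0 and 6 were called higher. Ndc80 and Nuf2, which link kinetochores to microtubules, changed by 3.48 ± 0.57 and 2.94 ± 0.39 log2 units in females on day 29, and Cdc20, the target of the checkpoint, by 2.43 ± 0.35 (edgeR adjusted p = 0.000201, 5.26e-05 and 7.96e-05). Of 8 tested kinases with other roles in the cell cycle, 6, 0, 7, 1 and 5 were called higher, among them Pbk (3.49 ± 0.52), Melk (3.45 ± 0.58) and Mastl (2.63 ± 0.53) in females on day 29 (edgeR adjusted p = 9.15e-05, 0.000273 and 0.00129).

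Of the 9 tested genes of the damage checkpoint list (8 in males on day 29), 2, 0, 0, 0 and 2 were called higher, with medians of 0.0765 to 0.345, where 21.4% of all genes were called in experiment A and 13.1% in females on day 29. Clspn, the Chek1 adaptor claspin, was called in experiment A at 3.11 ± 0.67 and in females on day 29 at 2.70 ± 0.52 (edgeR adjusted p = 0.00165 and 0.000851), from vehicle levels of 0.0798 ± 0.0492 and 0.114 ± 0.0579 CPM. Timeless, a replication fork protein, was called in females on day 29, at 0.91 ± 0.26 (edgeR adjusted p = 0.0139).

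Relatives of the kinases (other Cdk, Plk, Nek and Aurora genes) were called higher in 1, 0, 0, 0 and 0 of 12 tested genes, with medians of -0.0744 to 0.039. The 1 was Plk2, at 49.5 ± 14.2 CPM with vehicle and 92.2 ± 24.4 CPM at 1000 mkd in experiment A (edgeR adjusted p = 0.00215). Among partner lists in males on day 29, leaving out replicate 3 at 1500 mkd reduced the calls from 4 to 2 for the cyclins, 2 to 1 for the switch of Cdk1, 5 to 1 for the activators, 6 to 2 for the spindle checkpoint and 7 to 1 for the other cell cycle kinases.

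Markers of other cells were called in the 2 data sets with the most changed genes. Among all genes, 21.4% were called in experiment A and 13.1% in females on day 29. A count such as 1 of 6 markers lies near those shares and shows no change of a cell type. In experiment A at 1000 mkd 7 of 8 T and NK cell markers were called higher, with sums of 22.7 to 27.8 CPM in vehicle rats and 38.4 to 70.7 CPM in treated rats, and 4 of 8 macrophage markers (386 to 1210 and 971 to 1719 CPM). There, 3 of 8 hepatocyte markers, Alb, Ttr and Fgb, were called lower (217600 to 308000 and 64480 to 208900 CPM). Called higher as well were 3 of 6 endothelial markers (70.0 to 156 and 126 to 230.0 CPM) and 1 of 6 stellate cell markers (66.2 to 132 and 101 to 150.0 CPM). Erythroid markers were called lower for 2 of 5 (7.68 to 12.9 and 1.87 to 5.30 CPM), and neutrophil markers higher for 1 and lower for 2 of 4 (2.95 to 9.39 and 1.48 to 2.52 CPM).

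In females on day 29 at 1500 mkd, 3 of 8 macrophage markers (707 to 917 and 794 to 1674 CPM), 2 of 7 T and NK cell markers (16.8 to 42.5 and 32.2 to 64.8 CPM) and 2 of 6 endothelial markers (91.2 to 304 and 211 to 326 CPM) were called higher. Of 8 hepatocyte markers 1 was called higher and 2 lower (164200 to 342900 and 75330 to 170400 CPM). Of 4 erythroid markers 1 was higher and 2 lower, and 2 of 4 neutrophil, 1 of 3 cholangiocyte and 1 of 6 stellate cell markers were higher. All genes together had 13.1% called in that comparison. No B cell marker was called in any data set, and no marker list had a gene listed at 0 in all rats. The part of these cells in the kinase levels was not tested.

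In the other 3 data sets edgeR called 0 markers of any of these lists. For females on day 8, hepatocyte markers summed to 181900 to 253400 CPM with vehicle and 153900 to 188600 CPM at 1500 mkd, and T and NK cell markers to 31.5 to 59.7 and 29.6 to 59.1 CPM.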

How the data were processed

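The authors trimmed single rats' RNA-seq reads with Trimmomatic, aligned them to Rn6 with Bowtie2 and counted them on gene models with HTSeq, and deposited raw counts per gene in 5 tables. Versions and the strand setting are not given in the sources used here. A line of reads assigned to no gene (35.5% to 67.1% of a rat's total in experiment B) was left out of library sizes. No deposited column of a rat was left unused (0).

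Tests used edgeR 4.0.16 (R 4.3.3): filterByExpr (minimum count 10), TMM scaling, quasi-likelihood F tests with every dose of a data set in the fit, and adjustment over all genes tested. Calls needed a fold change of at least 1.5 and an adjusted p of at most 0.05. Interactions and vehicle comparisons were fitted jointly over groups of several tables. CPM came from the effective library sizes, with a prior count of 2 for log2 values. Ratios were tested with exact two-sided permutation tests and correlations with 1e+05 resamples (scipy 1.17.1, numpy 2.4.6, Python 3.11.15). Scripts were tested on simulated data.

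The kinases, the partner lists and the tests were chosen with earlier results of these data known. All 10 kinases were named throughout. Of each partner list, the 3 called genes with the largest absolute log2 fold change summed over the 5 highest-dose comparisons were named. A result for 1 listed gene is not reported here. Alternatives were DESeq2 1.42.0, DESeq2 size factors, no count filter, a stricter filter of 10 counts or more in all rats, a replicate block, 1 dose at a time, log2(dose + 100), a prior count of 0.5 and leaving out rats. Same-numbered rats were not paired in the design. Replicates are separate rats, and no 2 columns were identical.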

Additional observations from a re-analysis of the deposited data

Results flagged for a closer look

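Each kinase was checked for a rat far from the other 4 rats of its group, at vehicle and at the highest dose of each data set. By Dixon's ratio of the gap to the range, 22 of 100 combinations of a kinase and a group held such a rat. The cut-off flags about 1 in 20 (5%) for normally distributed values. CPM was used without a log, and its values need not be normal, so the 22 cannot be set against that rate. The combinations share rats, so the 22 are not independent.

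Replicate 3 of the males at 1500 mkd on day 29 stood far above the others for 9 of the 10 kinases. It had 112 CPM of Cdk1, 60.8 CPM of Plk1, 13.1 CPM of Nek2, 66.3 CPM of Aurka, 49.3 CPM of Aurkb, 70.1 CPM of Bub1, 36.4 CPM of Bub1b, 46.7 CPM of Ttk and 12.0 CPM of Chek2. The other 4 rats had 1.34 to 8.43 CPM of Cdk1 and 2.04 to 2.75 CPM of Chek2. Chek1 was the kinase for which this rat did not meet the criterion.

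In experiment A, replicate 4 at 1000 mkd stood above its group for 5 kinases, with 21.4 CPM of Cdk1, 17.1 CPM of Aurka, 17.0 CPM of Bub1, 9.32 CPM of Ttk and 2.35 CPM of Nek2. The other 4 rats had 7.95 to 9.55 CPM of Cdk1. Replicate 3 of that group was low for Chek2, at 3.34 CPM against 3.86 to 4.00 CPM, and vehicle replicate 5 was high for Ttk, at 2.79 CPM against 0.189 to 0.933 CPM.

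Among males of experiment B on day 8, vehicle replicate 5 was high, with 7.72 CPM of Cdk1 and 2.25 CPM of Bub1b against 1.34 to 3.08 and 0.447 to 0.934 CPM in the other vehicle rats. Of the females on day 8 at 1500 mkd, replicate 4 was high for Plk1 at 7.28 CPM (others 1.30 to 2.54) and Aurka at 8.40 CPM (others 5.52 to 6.24), and replicate 3 for Chek2 at 4.31 CPM (others 2.55 to 3.05). Of the females on day 29 at 1500 mkd, replicate 5 was low for Cdk1, at 3.15 CPM against 10.6 to 12.5 CPM.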

How the results depend on the processing

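No result past its threshold changed direction under any alternative that was run. Of the alternative values for counts, ratios and correlations, 345 kept their call or stayed within 1.5 times, 71 moved by more and 1 lost its call. Of those for single kinases, 789 kept their call, 137 lost it and 38 gained it. Depth limits the kinases with few reads in vehicle rats, such as Nek2 with 1 to 24. Causes of the changes below were not tested, and the counts of kinases below are given without the share of all genes called.

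With the DESeq2 Wald test the number of kinases called at the highest dose was 5 in males on day 8 and 8 in females on day 8, calls at lower doses were 15 in females on day 8 and 13 in females on day 29, called trends were 3 in males on day 29 (where 6 adjusted p were NA, with 14 NA at lower doses and 3 at the highest), and 2 kinases differed between vehicle females and males on day 8. With at least 10 counts in every rat, fewer kinases were tested. The highest dose then gave 4 calls in experiment A, 1 in males on day 8, 0 in females on day 8 and 5 in females on day 29, lower doses gave 2 in females on day 8 and 2 in females on day 29, and trends were 4 in females on day 8 and 5 in females on day 29. With the vehicle and the tested dose alone in the fit, males on day 29 had 0 calls at the highest dose and 6 at lower doses, females on day 8 had 0 at the highest dose, and females on day 29 had 8 at lower doses. On the scale log2(dose + 100), 5 trends were called in males on day 8.

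Rats of different groups share replicate numbers but no stated litter, cage or day, and same-numbered rats did not deviate together in every pair (lowest correlation -0.0876, -0.0656, -0.249, -0.0213 and -0.143 in the 5 data sets, with 2, 4, 3, 3 and 1 of 5 numbers best matched by their own). The replicate block gave 1 kinase called at the highest dose in males on day 8 and 0 in females on day 8. It moved no other count of kinases by more than 1.5 times.

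Leaving out 1 rat at a time (95 fits) gave 7 to 9 kinases called at the highest dose in experiment A, 0 to 7 in males on day 8, 2 to 9 in males on day 29, 0 to 7 in females on day 8 and 8 to 9 in females on day 29. Lower-dose calls ran from 0 to 13 in males on day 29, 0 to 13 in females on day 8 and 0 to 10 in females on day 29, and stayed at 0 in experiment A and in males on day 8. Trend calls ran from 9 to 10, 6 to 9, 5 to 10, 3 to 9 and 8 to 9 in the same order of data sets. In males on day 8 the calls at 1500 mkd were 7 without vehicle replicate 5, 3 without replicate 2 at 1500 mkd and 1 without replicate 3 at 1000 mkd. Females on day 8 had 0 such calls without any of the 5 vehicle rats, 0 without replicate 2, 3 or 4 at 1500 mkd, replicate 3 or 5 at 750 mkd or replicate 1 or 4 at 1000 mkd, 2 without replicate 1 at 750 mkd or replicate 2 at 1000 mkd, and 7 and 6 without replicates 1 and 5 at 1500 mkd. Lower-dose calls there were 0 without vehicle replicates 1, 3 or 5 or without replicate 5 at 1000 mkd, 4 without vehicle replicates 2 or 4 or replicate 1 at 1000 mkd, 2 without replicate 4 at 1000 mkd, and 13 without replicate 2 at 750 mkd. Females on day 29 had 0 such calls without vehicle replicates 1 or 4 or replicate 4 at 1000 mkd, 1 without vehicle replicate 5, 2 without replicates 2 or 3 at 1000 mkd, 8 without vehicle replicate 3 and 10 without replicate 5 at 1500 mkd. Leaving out a rat of a dose other than the one tested was an alternative chosen after seeing the data.

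Without replicate 3 of the males at 1500 mkd on day 29, 2 kinases were called at the highest dose, 13 calls were made at lower doses, 5 trends were called, 1 kinase (Ttk) responded differently in females and males on day 29 (the differences of all 10, none past the threshold with the rat, changed sign), and the correlation of Chek1 with Cdk1 was 0.143 (adjusted p = 0.133). Calls among partners were then 2 for the cyclins, 1 for the switch of Cdk1, 1 for the activators and passengers, 2 for the spindle checkpoint and 1 for the other cell cycle kinases, also chosen after seeing the data.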
